A study of Mus musculus with 7 samples.

Results

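The constitutive proteasome genes are the transcripts that encode the standing subunits of the proteasome, the protease complex that degrades ubiquitin-tagged proteins in the cytosol and nucleus. They were taken as the gene symbols that start with Psma, Psmb, Psmc or Psmd followed by a digit, without the cytokine-inducible subunits Psmb8, Psmb9 and Psmb10, and with at least 10 counts summed over the 7 libraries. The rule found 36 of the 23329 symbols in the count table. Just outside it stood Psma8, a subunit of the testis, with 0 counts, and just inside it Psmb11, a subunit of the thymus, with 27 counts. Psmb11 had too few counts for a test, which left 35 genes tested.

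The cells were of Beta-TC6, a line grown from a mouse beta-cell tumour that secretes insulin, in its wild-type form. One group received IL1B (interleukin-1 beta, an inflammatory cytokine that acts on pancreatic islets in diabetes) and has 3 libraries, and the other received vehicle and has 4. Cells of both groups grew in DMEM with 15% serum and were set in step by forskolin, which raises cAMP, at 10 µM for 1 h, so no group without forskolin enters the comparison. How much IL1B was used, how long it acted and when the cells were harvested was not given in the sources used here, and the labels do not say whether the libraries of a group came from separate cultures. The p-values therefore measure only the spread between these libraries, which may be technical.

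The proteasome is built from a barrel-shaped core particle and a regulatory particle that caps it. The core is a stack of rings of alpha subunits, which form the gate, and beta subunits, some of which cut proteins. The regulatory particle has a base, with a ring of ATPases that unfolds substrates, and a lid, which helps to remove the ubiquitin chain. In inflamed cells the 3 cutting subunits can be replaced by Psmb8, Psmb9 and Psmb10 to form the immunoproteasome, and the transcription factor Nfe2l1 raises the constitutive genes together when proteasome activity is short.

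By role, the 36 genes were 7 alpha subunits, 8 beta subunits, 6 ATPases, 3 other subunits of the base, 8 subunits of the lid and 3 assembly chaperones (Psmd5, Psmd9 and Psmd10, which help to build the base and leave the finished complex). One more, Psmc3ip, matched by its name alone: it encodes a protein of meiotic recombination and is no subunit. In what follows, the core is the 14 tested alpha and beta genes and the regulatory particle the 17 ATPase, base and lid genes, and the chaperones and Psmc3ip are given on their own.

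The libraries held 5335607 to 7513934 counts each, and the constitutive proteasome genes took 0.63% to 0.70% of them. The 8 beta-cell markers summed to between 34090 and 39286 CPM (TMM-scaled counts per 1e+06 counts of tested genes) over the 7 libraries. Nearly all of this sum came from Ins2, Iapp, Ins1 and Chga. Of the 8, 2 fell with IL1B, the transcription factors Pdx1 and Mafa. The 4 markers of other islet cells summed to 522 to 628 CPM, nearly all from the hormone genes Gcg and Sst. The 4 leukocyte markers summed to at most 4.45 CPM, the 4 stromal and endothelial markers to at most 5.89, and the 4 exocrine and duct markers to at most 7.18, with 2 of these 4 (Cpa1 and Amy2a5) at 0 in every library. In bulk RNA, a change in the number of cells and a change in RNA per cell cannot be told apart.

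The libraries were not alike within groups, and the second vehicle library stood apart. It was the highest of the 4 vehicle libraries in 32 of 35 proteasome genes, whereas it was the highest in 30.9% of all tested genes. Its proteasome genes sat a median of 0.11 above the vehicle mean on the log2 CPM scale, while the other 3 vehicle libraries sat between -0.043 and -0.023. In that library the deviation of a gene from the vehicle mean went with the length of its transcript (Spearman rho -0.56) over 11264 genes. The same measure was -0.022 to 0.020 in the IL1B libraries, each set against the IL1B mean. These genes share a library and its depth, and the rho is a description. Deviations from a group mean sum to zero over its libraries, so the deviations of the other vehicle libraries are tied to those of the second. Proteasome transcripts are short, with a median of 1581 bases (1162.5 in the core and 1819 in the regulatory particle) against 3268 bases for all tested genes. Beyond a fit corrected for length and GC content, given with the core and regulatory means, the part of transcript length in the results was not tested.

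The second IL1B library differed in another way. Its proteasome genes had a median of 0.018 on the log2 scale relative to the vehicle mean, close to the 0.021 and 0.033 of the other 2 IL1B libraries, but they were spread more widely, with an SD over the genes of 0.15 against 0.066 and 0.093 in the other IL1B libraries and 0.038 to 0.075 in the vehicle libraries. Its extremes were Psma5 at 0.31 and Psmb2 at -0.34. It was the highest IL1B library in 15 of the 35 genes and the lowest in 16, against 36.9% and 37.3% of all tested genes. Values are therefore given for all 7 libraries and again without these libraries where the call differs.

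**Figure D1:**
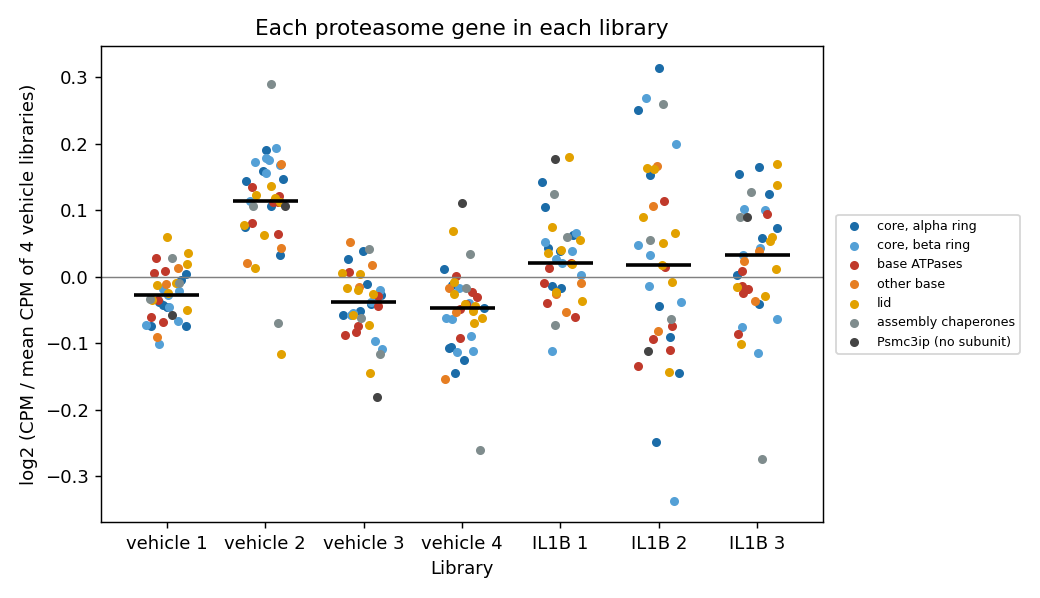
Each point is 1 of the 35 tested proteasome genes in 1 library, as the log2 ratio of its CPM to the mean CPM of the 4 vehicle libraries (y axis) by library (x axis), coloured by role; the bar is the median. The median lies at 0.11 in vehicle library 2 and between -0.046 and 0.033 in the other 6 libraries, and the points of IL1B library 2 spread the most, with an SD of 0.15.

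None of the 35 tested constitutive proteasome genes passed the test for a change with IL1B over the 7 libraries. By the edgeR quasi-likelihood test with Benjamini-Hochberg adjustment over 12480 genes, 0 were higher and 0 lower at an adjusted p of 0.05, while 11.0% of all tested genes passed (7.76% higher and 3.25% lower). DESeq2 also called 0 of the 35, against 8.90% of all genes, and limma-voom called 0, against 10.8%. At an unadjusted p of 0.05, 2 of the 35 passed, Psma5 and Psmd9, both with higher values in IL1B, against 22.6% of all genes. The adjusted p of the 35 ran from 0.0784 to 0.979.

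The differences were small as well as uncalled. The median log2 fold change of the 35 genes was 0.033, against -0.0087 over all tested genes, with a range from -0.13 (Psmd5) to 0.20 (Psma5). Leaving out 1 library at a time moved that median between 0.0088 (without vehicle library 4) and 0.075 (without vehicle library 2). Total-count scaling gave 0.0013, with the median of all genes at -0.041. In 26 of 35 genes, or 74.3%, the log2 fold change lay within 0.1 of zero, which was so for 45.1% of all tested genes. The 95% intervals of 34 of the 35 lay inside a 1.25-fold change in either direction, against 46.5% of all genes, and Psma5 was the exception. All 35 intervals lay inside a 1.5-fold change, as did 76.8% over all genes. These counts are for all 7 libraries, and intervals were not computed without vehicle library 2, where Psma5 gave 0.26 (SE 0.063). Proteasome genes were also more highly counted than most, with a median of 173 CPM in the vehicle libraries against 34.6 for all tested genes, which narrows their intervals.

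Of the 35 estimates, 24 were positive and 11 negative, against 47.8% positive over all genes. The CPM of the groups did not overlap in 4 of the 35 (Psmd9, Psmd11 and Psmd12 higher in IL1B, and Psmd1 lower), against 21.0% of all tested genes (12.1% higher and 8.83% lower). Vehicle library 2 was singled out as the highest vehicle library in 32 of these 35 genes, so leaving it out by itself moves most estimates upward. Without it, 27 of 35 were positive, against 48.7% of all genes, and 4 genes passed the edgeR test as higher, against 9.09% of all genes. These 4 were Psma5 (log2 fold change 0.26, adjusted p = 0.0084), Psmb4 (0.17, 0.0387), Psmb5 (0.20, 0.0305) and Psmd9 (0.21, 0.0318). With the second library of both groups left out, 31 of 35 estimates were positive, against 49.1% of all genes, and 3 alpha subunits passed as higher by edgeR, against 9.36% of all genes: Psma2 (0.17, 0.0174), Psma5 (0.20, 0.0102) and Psma6 (0.17, 0.0118). Psma5 was the only gene in both sets, and neither set held a gene that fell.

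**Figure D2:**
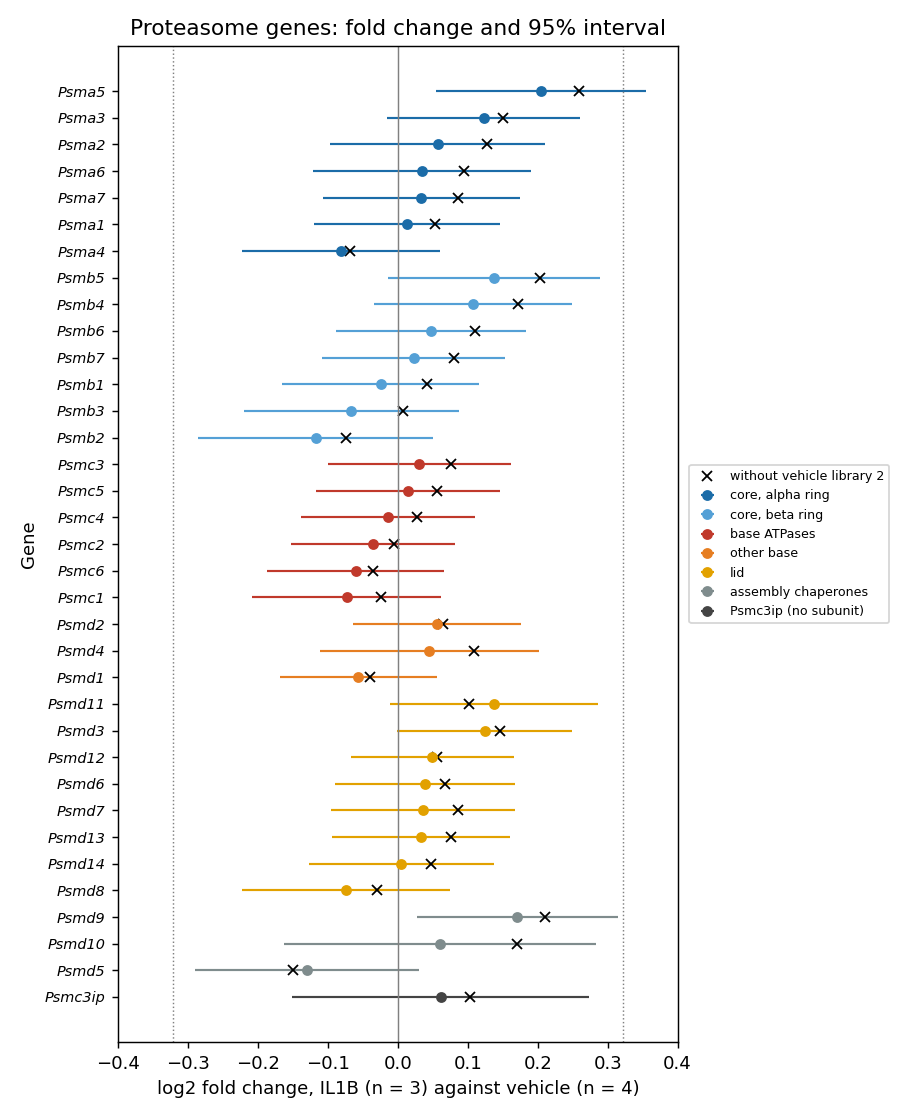
Log2 fold change of IL1B (n = 3) against vehicle (n = 4) for the 35 tested proteasome genes, ordered by role, with the 95% interval as a bar and the estimate without vehicle library 2 as a cross; dotted lines mark a 1.25-fold change. The estimates run from -0.13 for Psmd5 to 0.20 for Psma5, and the interval of Psma5 alone crosses a dotted line.

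The 7 alpha subunits, which form the gate rings of the core, gave a median log2 fold change of 0.034, with 6 positive estimates and 1 negative. Psma5 (GRCm38 chr3:108256926-108279974, plus strand) stood at 131, 150, 138 and 122 CPM in vehicle libraries 1 to 4 and at 149, 168 and 151 CPM in IL1B libraries 1 to 3. All 3 IL1B libraries were above 3 of the vehicle libraries, and the groups overlapped through vehicle library 2. Its log2 fold change of 0.20 (SE 0.072) had an adjusted p of 0.0784 by edgeR, and 0.0084 when vehicle library 2 was left out. Psma4 gave the lowest estimate of the ring, with 129, 132, 126 and 131 CPM in vehicle and 128, 109 and 130 CPM in IL1B. Its second IL1B library was low and the other 2 lay among the vehicle values, and the log2 fold change of -0.081 (SE 0.068, adjusted p = 0.536 by edgeR) turned to 0.0053 when the second library of both groups was left out. The log2 fold changes of the other 5, Psma1, Psma2, Psma3, Psma6 and Psma7, ran from 0.013 to 0.12. Both Psma4 and Psma5 have processed pseudogenes that match them at 96.8% to 98.6% identity, and how reads matching several places were counted was not given in the sources used here.

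Among the 7 tested beta subunits the median log2 fold change was 0.022, with 4 positive and 3 negative. The cutting subunits are Psmb5, which carries the chymotrypsin-like activity, Psmb6, the caspase-like one, and Psmb7, the trypsin-like one. Psmb5 was at 208, 238, 196 and 202 CPM in vehicle and at 217, 254 and 226 CPM in IL1B. The IL1B libraries lay above all vehicle libraries but the second, and the log2 fold change was 0.14 (SE 0.072, adjusted p = 0.276 by edgeR), or 0.20 with an adjusted p of 0.0305 without vehicle library 2. Psmb6 had 209, 246, 216 and 206 CPM in vehicle and 227, 227 and 226 CPM in IL1B. Its 3 IL1B values lay close together and inside the vehicle range, with a log2 fold change of 0.048 (SE 0.065, adjusted p = 0.737). Psmb7 had 236, 275, 240 and 236 CPM in vehicle and 247, 252 and 252 CPM in IL1B, again inside the vehicle range, with a log2 fold change of 0.022 (SE 0.063, adjusted p = 0.883). For Psmb7, total-count and upper-quartile scaling gave -0.0095 and -0.0032, and 405 exonic bases overlap Nek6 on the opposite strand, whose reads cannot be separated where counting ignores strand.

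The structural beta subunit Psmb2 gave the lowest estimate of the ring, -0.12 (SE 0.080, adjusted p = 0.431 by edgeR). It was at 125, 137, 122 and 123 CPM in vehicle and at 133, 101 and 117 CPM in IL1B. IL1B libraries 2 and 3 were below all vehicle libraries and IL1B library 1 was above 3 of them, and with the second library of both groups left out the estimate was 0.021. Psmb4, also structural, was at 340, 395, 343 and 325 CPM in vehicle and 356, 402 and 376 CPM in IL1B. It gave a log2 fold change of 0.11 (adjusted p = 0.379 by edgeR) and passed only without vehicle library 2. The other 2, Psmb1 and Psmb3, gave -0.025 and -0.067.

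Promoter windows from RefSeq (GRCm38.p6, 250 bases before to 50 after the gene's start) were found for 30 of the 36 genes, all but Psmb1, Psmb2, Psmb7, Psmc3, Psmd3 and Psmd7. Nfe2l1 binds with small Maf proteins to the antioxidant response element, searched here as TGACNNNGC on both strands. The element was found in 5 of the 30 windows (16.7%), and in 14% of all 27025 genes with a window, whether expressed in these cells or not. Among the 5 were Psmb5 and Psmb6, subunits that cut proteins, and Psmd9, a chaperone and one of the 2 genes with an unadjusted p under 0.05. The 100 bases before the start of these 3 genes are shown with the element in capitals, since it lies closest to the start in them. The coordinates are chr14:54617996-54618095 on the minus strand for Psmb5, chr11:70525257-70525356 on the plus strand for Psmb6 and chr5:123228090-123228189 on the plus strand for Psmd9.
Psmb5: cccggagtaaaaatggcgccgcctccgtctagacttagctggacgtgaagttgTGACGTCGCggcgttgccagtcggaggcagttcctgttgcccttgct
Psmb6: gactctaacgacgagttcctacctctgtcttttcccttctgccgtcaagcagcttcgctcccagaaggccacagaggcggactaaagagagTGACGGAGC
Psmd9: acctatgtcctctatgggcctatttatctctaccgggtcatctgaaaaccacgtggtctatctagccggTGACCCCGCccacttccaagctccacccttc
Starts here are those of RefSeq, which for Psmd9 is base 123228190: the GENCODE gene begins 58777 bases further upstream, so this window lies inside the GENCODE gene. For Psmb5 the GENCODE start is 27 bases upstream of that of RefSeq. The element ends 39 bases before the start in Psmb5, 1 base before it in Psmb6 and 23 bases before it in Psmd9. The other 2 genes with the element, Psmc6 and Psmd12, hold it more than 200 bases before the start. A match is a description of letters and not a site that was measured. The NF-kB consensus was found in 5 of the 30 windows (16.7%, against 9.55% of all genes), those of Psma6, Psma7, Psmd11, Psmd12 and Psmd13. These 5 genes did not pass the test over 7 libraries, but none of the 35 did, so this says nothing about the motif. The cAMP response element TGACGTCA was in 0 of the 30 (2.03% of all), which says only that these letters are not in the windows, and the CCAAT box in 13 (43.3%; 41.1% of all).

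The 6 ATPases of the base, which unfold substrates and thread them into the core, gave the lowest median log2 fold change of the roles, -0.025, with 2 positive and 4 negative. Psmc3 had the highest estimate, 0.031 (SE 0.063, adjusted p = 0.834 by edgeR), with 185, 207, 184 and 184 CPM in vehicle and 189, 206 and 188 CPM in IL1B. In each group the second library was the high one, and the other vehicle libraries lay at 184 to 185 CPM. The estimate of Psmc3 turned to -0.0014 under total-count scaling. Psmc1 had the lowest, -0.074 (SE 0.065, adjusted p = 0.563), with 219, 235, 202 and 201 CPM in vehicle and 206, 195 and 211 CPM in IL1B, and the groups overlapped. The other 4, Psmc2, Psmc4, Psmc5 and Psmc6, ran from -0.060 to 0.014.

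Of the other base subunits, Psmd1 and Psmd2 are the large scaffolds and Psmd4 is a receptor for ubiquitin chains. Psmd2, the most highly counted proteasome gene, was at 456, 459, 458 and 436 CPM in vehicle and at 444, 507 and 460 CPM in IL1B. Its second IL1B library was high and the other 2 lay close to the vehicle values, with a log2 fold change of 0.056 (SE 0.057, adjusted p = 0.629 by edgeR). Psmd1 was at 283, 294, 282 and 282 CPM in vehicle and at 275, 270 and 279 CPM in IL1B. All 3 IL1B libraries were below all 4 vehicle libraries, but by little, and the log2 fold change of -0.056 (SE 0.053) had an adjusted p of 0.596. Psmd4 was at 105, 126, 116 and 100 CPM in vehicle and at 111, 120 and 115 CPM in IL1B, inside the vehicle range, with a log2 fold change of 0.045 (SE 0.075, adjusted p = 0.793).

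The 8 lid subunits gave a median of 0.037, with 7 positive and 1 negative. Psmd11, a scaffold subunit that clamps the lid to the core, had the highest log2 fold change, 0.14 (SE 0.071, adjusted p = 0.265 by edgeR). It was at 68.1, 61.2, 66.6 and 69.6 CPM in vehicle and at 75.2, 70.6 and 73.0 CPM in IL1B. The groups did not overlap, and unlike most of the genes it was lowest, not highest, in vehicle library 2, so its estimate dropped to 0.10 without that library. A near-identical transcript in the table, A730017L22Rik, matches 52.7% of the length of Psmd11 at 97.9% identity, so its counts are uncertain. Psmd8 had the lowest estimate, -0.074 (SE 0.071, adjusted p = 0.601), with 135, 141, 117 and 125 CPM in vehicle and 131, 117 and 121 CPM in IL1B. Psmd14, the deubiquitinase that cuts the chain from the substrate, was at 127, 142, 129 and 127 CPM in vehicle and at 128, 137 and 130 CPM in IL1B. Its log2 fold change was 0.0047 (SE 0.063, adjusted p = 0.979), the closest to zero of the 35, and was -0.027 under total-count and -0.021 under upper-quartile scaling. The other 5 lid genes, Psmd3, Psmd6, Psmd7, Psmd12 and Psmd13, ran from 0.033 to 0.12.

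The ETS site, searched as CCGGAAG on both strands, was in 9 of the 14 windows of regulatory particle genes. It was also in 1 of the 12 core windows (Psma6) and in Psmc3ip. That makes 11 of 30 (36.7%), against 9.93% of all 27025 genes with a window, whether expressed in these cells or not. These motifs were chosen with the genes known, and no test was made of the share. The 4 windows shown, each the 100 bases before the start, are from 1 ATPase, 1 scaffold of the base and 2 lid subunits, with the site in capitals, written on the gene's strand as CCGGAAG or as its reverse complement CTTCCGG. They lie at chr12:100110102-100110201 (Psmc1, plus strand), chr16:20651552-20651651 (Psmd2, plus strand), chr14:14120946-14121045 (Psmd6, minus strand) and chr11:80428515-80428614 (Psmd11, plus strand).
Psmc1: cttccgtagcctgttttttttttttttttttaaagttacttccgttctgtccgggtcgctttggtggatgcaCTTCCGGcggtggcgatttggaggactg
Psmd2: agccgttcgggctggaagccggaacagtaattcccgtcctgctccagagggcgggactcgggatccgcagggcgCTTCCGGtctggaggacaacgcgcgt
Psmd6: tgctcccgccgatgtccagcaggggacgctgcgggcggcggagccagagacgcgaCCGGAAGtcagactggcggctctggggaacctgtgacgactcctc
Psmd11: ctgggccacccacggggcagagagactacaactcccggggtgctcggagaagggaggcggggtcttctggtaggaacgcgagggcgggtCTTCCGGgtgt
The site ends 22 bases before the start in Psmc1, 20 in Psmd2, 39 in Psmd6 and 5 in Psmd11. With IL1B these 4 genes had log2 fold changes of -0.074, 0.056, 0.039 and 0.14. Those of Psmc1 and Psmd11 were the lowest and highest of the 11 genes with the site. As with all 35 tested genes, none of the 11 passed the test over the 7 libraries. Starts are those of RefSeq: the GENCODE gene starts at the same base for Psmd2 and Psmd11, and 48 and 39 bases further upstream for Psmc1 and Psmd6.

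The assembly chaperones held both a high and the lowest estimate. Psmd9 (GRCm38 chr5:123169413-123250131, plus strand, in GENCODE) was at 80.6, 88.8, 79.0 and 81.5 CPM in vehicle and at 89.9, 98.7 and 90.1 CPM in IL1B. Every IL1B library was above every vehicle library, though vehicle library 2 came within about 1 CPM of IL1B library 1. The log2 fold change of 0.17 (SE 0.069) had an adjusted p of 0.134 by edgeR, and 0.0318 without vehicle library 2, and 1849 exonic bases overlap a long noncoding gene on the opposite strand. Psmd5 was at 60.6, 58.1, 62.8 and 62.4 CPM in vehicle and at 58.0, 58.3 and 50.4 CPM in IL1B. IL1B library 3 was low and the other 2 lay near vehicle library 2, with a log2 fold change of -0.13 (SE 0.077, adjusted p = 0.343). Psmd10, also known as the oncoprotein gankyrin, gave 0.060. The recombination gene Psmc3ip was at 27.2, 30.5, 25.0 and 30.6 CPM in vehicle and 32.1, 26.3 and 30.2 CPM in IL1B, which overlapped, with a log2 fold change of 0.061 (SE 0.10, adjusted p = 0.790). As with Psmb7, exons of other genes on the opposite strand overlap those of Psma4 (114 bases of AY074887), Psmc3 (215 bases of Slc39a13), Psmc3ip (385 bases of Mlx), Psmd1 (252 bases of Htr2b) and Psmd13 (342 bases of Sirt3). On the same strand, exons of Psmd1 share 301 bases with Gm21972 and those of Psmb5 share 109 bases with Mir686. Strand cannot separate reads of such overlaps. Besides Psma4 and Psma5, processed pseudogenes match Psmb3, Psmb5, Psmc1, Psmd2 and Psmd11 at 95.6% to 98.9% identity, so the counts of these genes are less certain than the rest.

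Core and regulatory particle gave nearly the same median over the 7 libraries. The median log2 fold change was 0.034 over the 14 core genes, of which 10 were positive, and 0.031 over the 17 regulatory genes, of which 11 were positive. The medians lay further apart without IL1B library 2, at 0.051 and -0.0080, and without vehicle library 2, at 0.090 and 0.056. Over the libraries left out 1 at a time, the core median ran from 0.0093 (without IL1B library 3) to 0.090 and the regulatory median from -0.0080 to 0.056. Library by library, the mean log2 CPM of the core minus that of the regulatory particle was -0.014, 0.079, 0.014 and -0.015 in vehicle libraries 1 to 4 and 0.040, 0.024 and 0.041 in IL1B libraries 1 to 3. The IL1B values lay inside the vehicle range, which vehicle library 2 set at its top. The group means were 0.016 ± 0.044 (SD, n = 4) and 0.035 ± 0.0096 (SD, n = 3), a difference of 0.020 that is smaller than the vehicle SD. Without vehicle library 2 the vehicle mean was -0.0054 ± 0.016 (SD, n = 3), the groups no longer overlapped and the difference was 0.041. That library held the highest vehicle value of this same measure, so both changes follow from leaving it out and are no separate evidence of a difference.

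Each particle on its own showed the same dependence. The core mean was 7.57 ± 0.099 (SD, n = 4) log2 CPM in vehicle and 7.60 ± 0.0077 (SD, n = 3) in IL1B. Vehicle library 2, at 7.71, was above all IL1B libraries, and the other 3 vehicle libraries, at 7.50 to 7.53, were below all of them. Without that library the core was 0.085 higher and the regulatory particle 0.044 higher in IL1B on the log2 scale, and the alpha and beta rings 0.096 and 0.073. Leaving out the highest vehicle library raises each of these differences by itself. The regulatory mean was 7.55 ± 0.056 (SD, n = 4) in vehicle and 7.57 ± 0.0045 (SD, n = 3) in IL1B. With GC content and length of transcript corrected for in each library, the median log2 fold change was 0.022 for the core and -0.017 for the regulatory genes, and 1 of the 35 genes, Psma5, passed as higher (0.19, adjusted p = 0.0324 by edgeR).

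**Figure D3:**
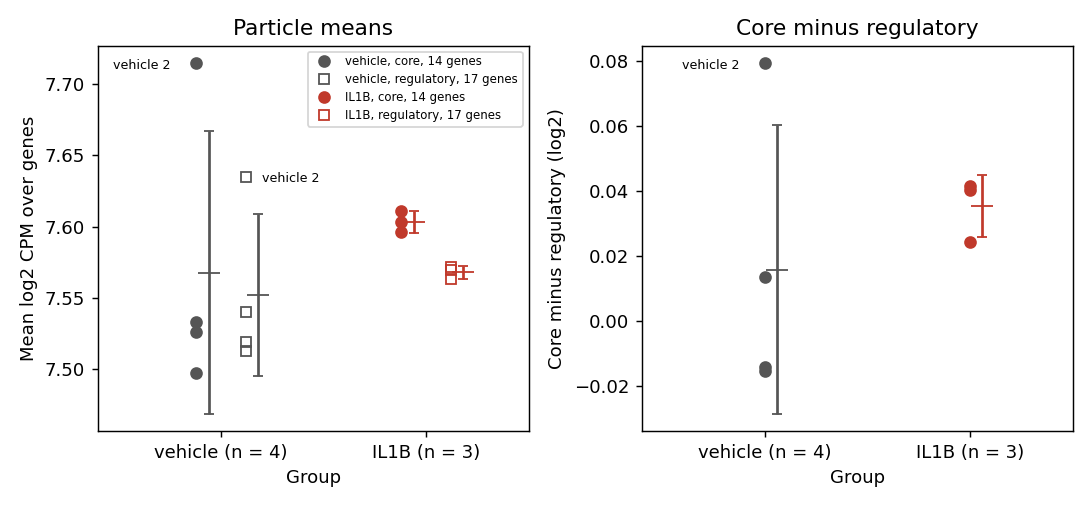
Left, the mean log2 CPM (y axis) over the 14 core genes (circles) and 17 regulatory genes (squares) in each library of each group (x axis). Right, the core mean minus the regulatory mean. Horizontal dashes with bars are the group mean ± SD. Vehicle library 2 is the highest point in both panels, with a core mean of 7.71 and a difference of 0.079, and the IL1B differences of 0.024 to 0.041 lie between it and the other vehicle libraries.

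Other genes of the pathway did pass the test. Of 40 tested genes in 8 lists of inducible subunits, activators, assembly factors, regulators, ubiquitin genes and partners, 8 rose and 2 fell by edgeR, or 25.0%, against 11.0% of all genes. The lists were chosen with earlier results of these data known, so this share cannot show that the pathway responds more than other genes. By list, 1 of 3 inducible subunits rose, 2 of 5 activators and inhibitors rose, 5 of 7 genes of the Nfe2l1 list rose, and 2 of 8 receptors, ligases and deubiquitinases fell. None of the 6 assembly factors, the 2 other subunits Adrm1 and Sem1 (listed as Shfm1), the 4 ubiquitin genes or the 5 genes of Vcp, the ATPase that extracts ubiquitin-tagged proteins, and its cofactors passed.

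Among the inducible cutting subunits, Psmb10 rose. Psmb10 (GRCm38 chr8:105935735-105938444, minus strand), which replaces Psmb7 in the immunoproteasome, was at 14.2, 18.6, 15.9 and 16.9 CPM in vehicle and at 25.9, 35.9 and 33.4 CPM in IL1B. The groups did not overlap, and the log2 fold change was 0.95 (SE 0.12, adjusted p = 1.3e-05 by edgeR). Psmb8, which replaces Psmb5, was at 11.6, 13.9, 8.81 and 12.1 CPM in vehicle and at 11.5, 14.8 and 11.8 CPM in IL1B, and overlapped, with a log2 fold change of 0.12 (SE 0.15, adjusted p = 0.711). Psmb9, which replaces Psmb6, had 6 to 17 counts per vehicle library and 14 to 19 per IL1B library, with a log2 fold change of 0.64 (SE 0.35, adjusted p = 0.290), and its exons overlap those of Tap1 on the opposite strand. At this depth, the 95% interval of Psmb9, from -0.083 to 1.36, does not tell no change from one as large as that of Psmb10.

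Set per length against its constitutive partner, Psmb10 was 5.88% ± 0.41 (SD, n = 4) of Psmb7 in vehicle and 11.2% ± 1.71 (SD, n = 3) in IL1B, in CPM per kilobase of transcript. Psmb8 was 3.02% ± 0.37 of Psmb5 in vehicle and 3.01% ± 0.18 in IL1B, and Psmb9 was 0.439% ± 0.20 of Psmb6 in vehicle and 0.670% ± 0.15 in IL1B. In all 7 libraries, then, the inducible transcript was the minor one of each pair. Of the first pair, Psmb10 passed the test and Psmb7 did not.

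The activators are alternative caps of the core. Psme3, the nuclear activator, was at 121, 126, 114 and 119 CPM in vehicle and at 144, 156 and 143 CPM in IL1B, without overlap, and rose by a log2 fold change of 0.30 (SE 0.062, adjusted p = 0.0025 by edgeR). Psme2, a subunit of the interferon-inducible activator, was at 94.5, 110, 92.9 and 85.8 CPM in vehicle and at 114, 117 and 115 CPM in IL1B. It rose by 0.27 (SE 0.074, adjusted p = 0.0228), a call that was lost, at adjusted p from 0.0637 to 0.0926, on leaving out any 1 of vehicle libraries 1, 3 and 4 or IL1B libraries 1, 2 and 3. A near-identical gene, Psme2b, matches 82.5% of its length at 99.4% identity, so its counts are uncertain. Its partner Psme1 gave 0.13 (SE 0.077, adjusted p = 0.358), with overlapping groups. The assembly factor Pomp, which matures the beta ring, gave 0.11 (adjusted p = 0.378), and Adrm1, a ubiquitin receptor of the base, 0.086 (adjusted p = 0.542).

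Nfe2l1, the transcription factor that drives the constitutive genes when proteasome activity is short, rose. It was at 219, 207, 208 and 233 CPM in vehicle and at 274, 294 and 287 CPM in IL1B, with a log2 fold change of 0.39 (SE 0.059, adjusted p = 8.5e-05 by edgeR). Ngly1, the enzyme that removes sugars from its protein as part of its activation, was at 42.5, 43.7, 43.5 and 38.4 CPM in vehicle and at 52.6, 53.9 and 55.2 CPM in IL1B, and rose by 0.35 (SE 0.078, adjusted p = 0.0038). Neither gene's groups overlapped. Of the small Maf partners, Maff rose most, from 36.0 ± 3.96 CPM (SD, n = 4) to 246 ± 14.5 CPM (SD, n = 3), a log2 fold change of 2.77 (SE 0.077, adjusted p = 1.2e-15). Mafk rose by 0.64 (SE 0.10, adjusted p = 1.5e-04) and Mafg by 0.51 (SE 0.074, adjusted p = 6.2e-05). Exons of Mafg share 124 bases with those of Sirt7 on the same strand, and exons of Mafk 169 bases with those of Tmem184a on the opposite strand. Ddi2, the protease that cleaves the Nfe2l1 protein, gave -0.081 (adjusted p = 0.731), and Nfe2l2, a related factor for oxidative stress, -0.13 (SE 0.098, adjusted p = 0.468). Transcript levels do not measure the processing of the Nfe2l1 protein. The 5 constitutive genes with an antioxidant response element in their window gave log2 fold changes of 0.14 (Psmb5), 0.048 (Psmb6), -0.060 (Psmc6), 0.049 (Psmd12) and 0.17 (Psmd9). Like the rest of the 35, they did not pass over the 7 libraries.

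Both genes that fell are partners of the regulatory particle. Ubqln2, a shuttle that carries ubiquitin-tagged proteins to the proteasome, was at 446, 424, 444 and 497 CPM in vehicle and at 374, 317 and 377 CPM in IL1B. It fell by 0.35 on the log2 scale (SE 0.069, adjusted p = 0.0016 by edgeR). Ube3c, a ubiquitin ligase bound to the proteasome, was at 477, 435, 445 and 454 CPM in vehicle and at 375, 363 and 376 CPM in IL1B, and fell by 0.29 on the log2 scale (SE 0.054, adjusted p = 0.0010). Neither overlapped between groups.

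**Figure D4:**
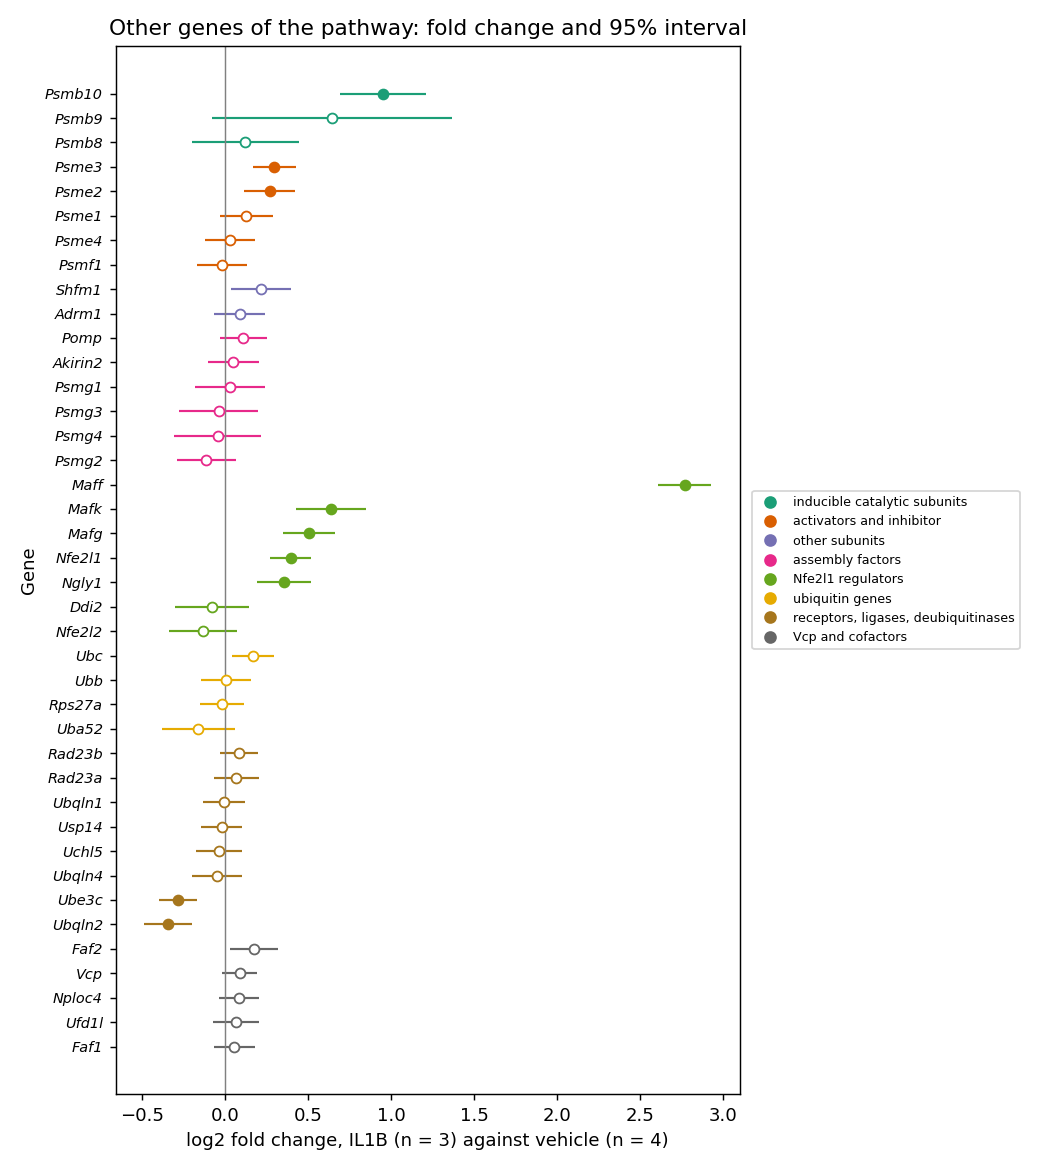
Log2 fold change of IL1B (n = 3) against vehicle (n = 4) with its 95% interval for the 40 tested pathway genes outside the constitutive set, grouped by list (colour); filled points passed an adjusted p of 0.05. The 10 filled points are 8 genes that rose, from Psme2 at 0.27 to Maff at 2.77, and 2 that fell, Ube3c at -0.29 and Ubqln2 at -0.35.

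Levels within the complex were compared per kilobase of the longest annotated transcript, as a description. In vehicle libraries the highest levels were those of Psmb4 at 296 ± 25.9, Psmb6 at 275 ± 23.2, Psmb5 at 235 ± 20.9, Psma7 at 226 ± 16.8 and Psmb7 at 213 ± 16.2 CPM per kilobase (SD, n = 4), and neighbours in this order lay less than 1 SD apart except Psmb6 and Psmb5. The cutting subunits Psmb5, Psmb6 and Psmb7 were thus all among the 5 highest, though Psmb7 lay less than 1 SD above the ATPase Psmc2, next in order at 209 ± 9.08. The median over genes was 154 ± 10.7 CPM per kilobase for the core and 91.7 ± 1.84 for the regulatory particle in vehicle (SD over 4 libraries), and 148 ± 6.80 and 91.9 ± 3.0 in IL1B (SD over 3 libraries). Subunits that sit in the complex in equal numbers thus differed in CPM per kilobase: the lid gene Psmd11 was at 23.3 ± 1.28, far under Psmd6 of the same lid at 188 ± 7.05. The counts of Psmd11 are uncertain because of its near-identical copies, and its length was taken as 2848 bases against 1387 for Psmd6. How much of this gap comes from either was not tested. The chaperones were low, with Psmd9 at 31.3 ± 1.65, Psmd10 at 24.7 ± 4.11 and Psmd5 at 13.9 ± 0.485. The inducible subunits were lower than every tested constitutive gene in vehicle, with Psmb10 at 12.5 ± 1.41, Psmb8 at 7.13 ± 1.30 and Psmb9 at 1.18 ± 0.495, though Psmb10 was within its SD of Psmd5. In IL1B, Psmb10 was at 24.2 CPM per kilobase, near the vehicle level of Psmd11. The length of the transcript that these cells use was not measured, and a shorter or longer one would shift a gene's level. Per kilobase of the annotation's principal transcript (914 bases, not 1157), Psma7 was at 286 ± 21.3 in vehicle. That is above Psmb5 and also above Psmb6, though within its SD of Psmb6.

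**Figure D5:**
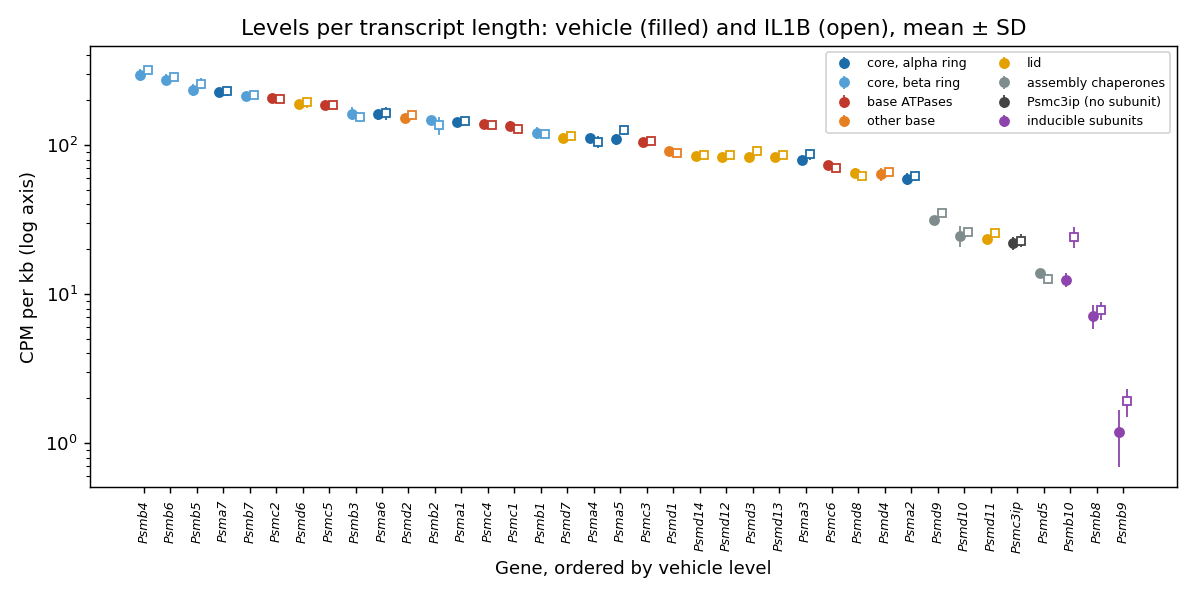
CPM per kilobase of the longest annotated transcript (y axis, log scale) for the 35 tested proteasome genes and the 3 inducible subunits (x axis, ordered by the vehicle level), as mean ± SD in vehicle (filled, n = 4) and IL1B (open, n = 3), coloured by role. Levels run from 296 for Psmb4 to 13.9 for Psmd5 among the constitutive genes in vehicle, and Psmb10 has the widest gap between the groups on the log scale, 12.5 against 24.2.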

How the data were processed

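Polyadenylated RNA of 7 libraries (4 vehicle, 3 IL1B) was sequenced with the NEBNext Ultra II kit, per the labels' protocols. What the authors deposited is a table of raw counts, with gene symbols as rows. The submitters' processing notes name the build mm10 and, with no role for any, R 4.1.0, Bowtie2, Cell Ranger, DESeq2, HOMER, RSEM, Seurat, Signac and STAR. The aligner, counter, annotation, strand setting and treatment of reads with several matches were not given in the sources used here.

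Testing used edgeR 4.0.16 in R 4.3.3. After TMM scaling and filterByExpr, which kept 12480 genes, IL1B was compared with vehicle by the quasi-likelihood test with Benjamini-Hochberg adjustment, threshold 0.05. SE was taken from the log2 fold change and F (its size divided by the root of F), and intervals are 95%. CPM are per 1e+06 counts in tested genes, and log2 CPM used a prior count of 2. IL1B columns are numbered 1 to 3 in the table but not so in the sample titles, so they were assigned to the group only and the table's numbers are used. Libraries of a group differed by more than sampling noise (chi-square per degree of freedom 1.53 to 4.93 over 9 pairs), and all were kept.

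The genes, lists, motifs and tests were chosen with earlier results of these data known. Values in each library are given for proteasome genes past the threshold, for the highest and lowest estimate in each role, and for Psmb5, Psmb6, Psmb7, Psmc3ip, Psmd4 and Psmd14. Psmb4 was added after its value without vehicle library 2 was seen. Of the other genes, those past the threshold and Psmb8, Psmb9, Psme1, Pomp, Adrm1 and Nfe2l2 are named, and Ddi2 was added to complete the Nfe2l1 list. Paaf1 and Ecm29 are not used here, and Npl4 and Ufd1 are listed as Nploc4 and Ufd1l. Near-identical copies share at least 30% of the longest transcript at 95% identity (blastn 2.17.0+ against the GENCODE transcripts). The alternatives tried were scaling by total count, upper quartile or RLE, testing without a low-count filter or with at least 1 CPM in 3 libraries, DESeq2 1.42.0, limma-voom (limma 3.58.1), each library left out, the second library of both groups left out, and a GC content and length correction. The use of the principal transcript's length was chosen after seeing the data.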

Additional observations from a re-analysis of the deposited data

Results flagged for a closer look

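Within the groups of 4 vehicle libraries, Dixon's test marked 8 of 78 values tested. Chance marks about 1 in 20 independent groups, but these values come from the same 4 libraries and are not independent, so that rate is no expected count for them. In 6 of the 8 the library apart was vehicle library 2, on the high side. Psma6 was at 187 CPM there against 159 to 162 in the other vehicle libraries, and Psmb7 was at 275 CPM against 236 to 240. Psmc3 was at 207 CPM against 184 to 185, and Psmd14 at 142 CPM against 127 to 129. Psmd1 was at 294 CPM against 282 to 283, a gap that is small in itself and large only beside the closeness of the other 3. The mean log2 CPM of the core was 7.71 in that library against 7.50 to 7.53. In the other 2 cases a library was low: Psmd2 was at 436 CPM in vehicle library 4 against 456 to 459, and Vcp at 1041 CPM in vehicle library 1 against 1080 to 1084. The groups of 3 IL1B libraries were too small for this test.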

How the results depend on the processing

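No proteasome gene passed as lower in any of the 16 alternative settings, and the number that passed as higher ran from 0 to 4. It was 4 without vehicle library 2 and 0 on leaving out any other single library, 3 without the second library of both groups, 1 after the GC content and length correction, and 0 under the other settings. The median log2 fold change of regulatory genes was -0.017 after that correction, -0.0014 under total-count scaling and -0.0080 without IL1B library 2, while that of core genes ran from 0.0018 to 0.090 over the 16 settings. Some estimates changed sign: under upper-quartile scaling Psmb7 gave -0.0032 and Psmd14 -0.021; under total-count scaling Psmc3 gave -0.0014, Psmb7 -0.0095 and Psmd14 -0.027; without a low-count filter Psmd14 gave -0.0034. Without the second library of both groups Psma4 gave 0.0053, Psmb2 0.021, Psmc1 0.0011 and Psmd8 0.00012. After the correction Psmc3 gave -0.037, Psmd2 -0.0033, Psmd4 -0.017 and Adrm1 -0.013. On leaving out each library in turn, the log2 fold change ran from -0.00068 to 0.081 for Psmb7, from -0.026 to 0.047 for Psmd14, from -0.00015 to 0.11 for Psmd4, from -0.0068 to 0.14 for Psmc3ip, from -0.012 to 0.075 for Psmc3 and from -0.0013 to 0.096 for Psmd2. The cause of these shifts was not tested. The other pathway genes that rose numbered 7 to 11 over all settings, and 2 fell in each. The core minus regulatory difference was computed from edgeR's log2 CPM, so DESeq2 and limma-voom give no separate value. Over the other 14 settings this difference, IL1B minus vehicle, ran from 0.0092 to 0.046. At this depth Psmb11 could not be tested and Psmb9 had a wide interval. No paired analysis was possible because the table numbers its IL1B columns 1 to 3 while the titles number those samples 1, 3 and 4, so columns cannot be matched to samples by number, and no label says that equal numbers mark pairs.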
